A study of Mus musculus with 16 samples.

Results

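The genes described here are 51 genes of mitosis and the spindle, chosen by name as the rows of the gene table that carry their symbols: mitotic cyclins and their partners, mitotic kinases, spindle checkpoint, anaphase, kinetochore, kinesin, cytokinesis and condensin genes, and 2 transcription factors that act on them. All 51 were present once among the 25611 entries of the table, and all 51 were among the 16630 genes with enough counts to be tested. They were sorted into 10 groups by their role.

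RNA was sequenced from thyroid glands of C57BL/6 mice in 4 groups of 4. The diet was normal (ND, NIH-31) for WT(ND) and *Glis3*-Pax8Cre(ND) and low in iodine (LID, TD.95125) for the corresponding LID groups, for 6 days by the study's methods. In *Glis3*-Pax8Cre mice, Cre recombinase from the Pax8<tm1.1(cre)Mbu> allele, active in cells that express *Pax8* such as follicular cells, removes exon 5 of the floxed Glis3<tm2Amj> allele (background B6;129), and other cells of the gland keep it. The mice were weaned at 3 weeks and were 1 month old by the labels and 4 weeks old by the methods, and neither says whether the WT mice carried a floxed allele or Cre. Since whole glands were used, more dividing cells and more RNA per cell cannot be told apart.

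Entry into mitosis is driven by CDK1 with cyclin B, the spindle is then built by kinesins and microtubule proteins, and the checkpoint holds back the anaphase-promoting complex until every kinetochore is attached. Most of these genes are transcribed together late in the cell cycle, through FOXM1, B-MYB (*Mybl2*) and the MuvB complex, which act at a CHR (cell cycle genes homology region) near the transcription start and at CCAAT boxes bound by NF-Y. In the thyroid, follicular cells rarely divide, and a shortage of iodine raises TSH, which is a growth signal for them.

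Promoters were compared because the members moved together. RefSeq promoters of the GRCm38.p6 build, from 250 bases before to 50 bases after a transcription start, were held for 42 of the 51 genes. The homology region was searched as TTTGAA and, in its other usual form, as TTCGAA. The NF-Y box was searched as CCAAT, and all were looked for on both strands. Matches may share a base where they adjoin. A homology region was found in 30 of the 42 promoters (71.4%), against 21.7% of the 27025 genes with a promoter of the same length. Within 50 bases of the start it was found in 27 of 42 (64.3%), against 6.12% of all genes. A box was found in 30 of 42 (71.4%), against 41.1% of all genes, and 25 genes had both motifs. Such matches describe the letters of these windows only. The stretches below are those of 5 genes with both motifs, of *Cks2*, which has the NF-Y box alone, and of *Pttg1* and *Mybl2*, which have neither and whose values stood apart below. Each runs 5′ to 3′ on the gene's strand over 150 bases before the start and the 25 bases from it on, with every match of either motif, on either strand, in capitals. They are those of *Ccnb2* at chr9:70421530-70421704 (minus strand), *Cdk1* at chr10:69352888-69353062 (minus strand), *Cdc20* at chr4:118437319-118437493 (minus strand), *Prc1* at chr7:80294301-80294475 (plus strand), *Hmmr* at chr11:40733413-40733587 (minus strand), *Cks2* at chr13:51645082-51645256 (plus strand), *Pttg1* at chr11:43425957-43426131 (minus strand) and *Mybl2* at chr2:163054485-163054659 (plus strand).
Ccnb2: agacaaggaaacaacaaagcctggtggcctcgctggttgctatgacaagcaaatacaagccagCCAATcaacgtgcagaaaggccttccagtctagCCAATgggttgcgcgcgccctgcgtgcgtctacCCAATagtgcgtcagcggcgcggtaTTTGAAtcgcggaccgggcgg
Cdk1: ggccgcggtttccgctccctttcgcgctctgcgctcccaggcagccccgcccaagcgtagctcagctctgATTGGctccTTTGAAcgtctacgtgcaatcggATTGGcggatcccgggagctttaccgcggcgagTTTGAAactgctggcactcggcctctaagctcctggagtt
Cdc20: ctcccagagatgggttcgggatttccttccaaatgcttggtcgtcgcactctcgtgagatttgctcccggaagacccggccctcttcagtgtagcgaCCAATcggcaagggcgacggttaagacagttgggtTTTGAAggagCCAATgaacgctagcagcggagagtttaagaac
Prc1: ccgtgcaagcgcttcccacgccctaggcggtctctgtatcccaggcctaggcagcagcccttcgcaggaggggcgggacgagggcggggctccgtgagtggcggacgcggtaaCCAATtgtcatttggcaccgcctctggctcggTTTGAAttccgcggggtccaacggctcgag
Hmmr: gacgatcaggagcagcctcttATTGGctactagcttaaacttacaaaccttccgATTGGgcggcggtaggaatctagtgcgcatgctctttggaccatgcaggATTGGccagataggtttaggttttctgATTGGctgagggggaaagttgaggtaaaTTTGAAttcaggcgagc
Cks2: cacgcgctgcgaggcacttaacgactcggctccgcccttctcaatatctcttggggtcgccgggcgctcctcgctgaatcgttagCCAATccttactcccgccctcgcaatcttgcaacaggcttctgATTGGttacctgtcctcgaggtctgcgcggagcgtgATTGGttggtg
Pttg1: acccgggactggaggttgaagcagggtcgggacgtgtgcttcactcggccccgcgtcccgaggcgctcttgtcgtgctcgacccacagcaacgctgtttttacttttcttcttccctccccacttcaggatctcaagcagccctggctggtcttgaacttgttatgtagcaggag
Mybl2: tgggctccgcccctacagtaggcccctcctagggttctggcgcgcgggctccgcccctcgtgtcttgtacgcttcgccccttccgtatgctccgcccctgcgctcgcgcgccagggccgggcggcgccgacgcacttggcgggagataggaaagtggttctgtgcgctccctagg

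Counted in bases with 0 at the start, *Ccnb2* has NF-Y boxes at -87, -54 and -21 and a homology region at 4. *Cdk1* has homology regions at -71 and -15 and boxes at -80 and -48, and *Hmmr* has 4 boxes in this stretch. The size of the rise with the LID in WT mice, described below, was close between genes with and without a homology region. The median log2 fold change (log2FC) was 3.07 over the 30 genes with a homology region and 3.05 over the 12 without. It was 2.31 over the 7 genes with neither motif, *Birc5*, *Mad2l1*, *Mybl2*, *Nuf2*, *Nusap1*, *Pttg1* and *Tacc3*, where it ranged from 0.35 (*Pttg1*) to 3.21 (*Birc5*). No test was made of these differences.

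**Figure D1:**
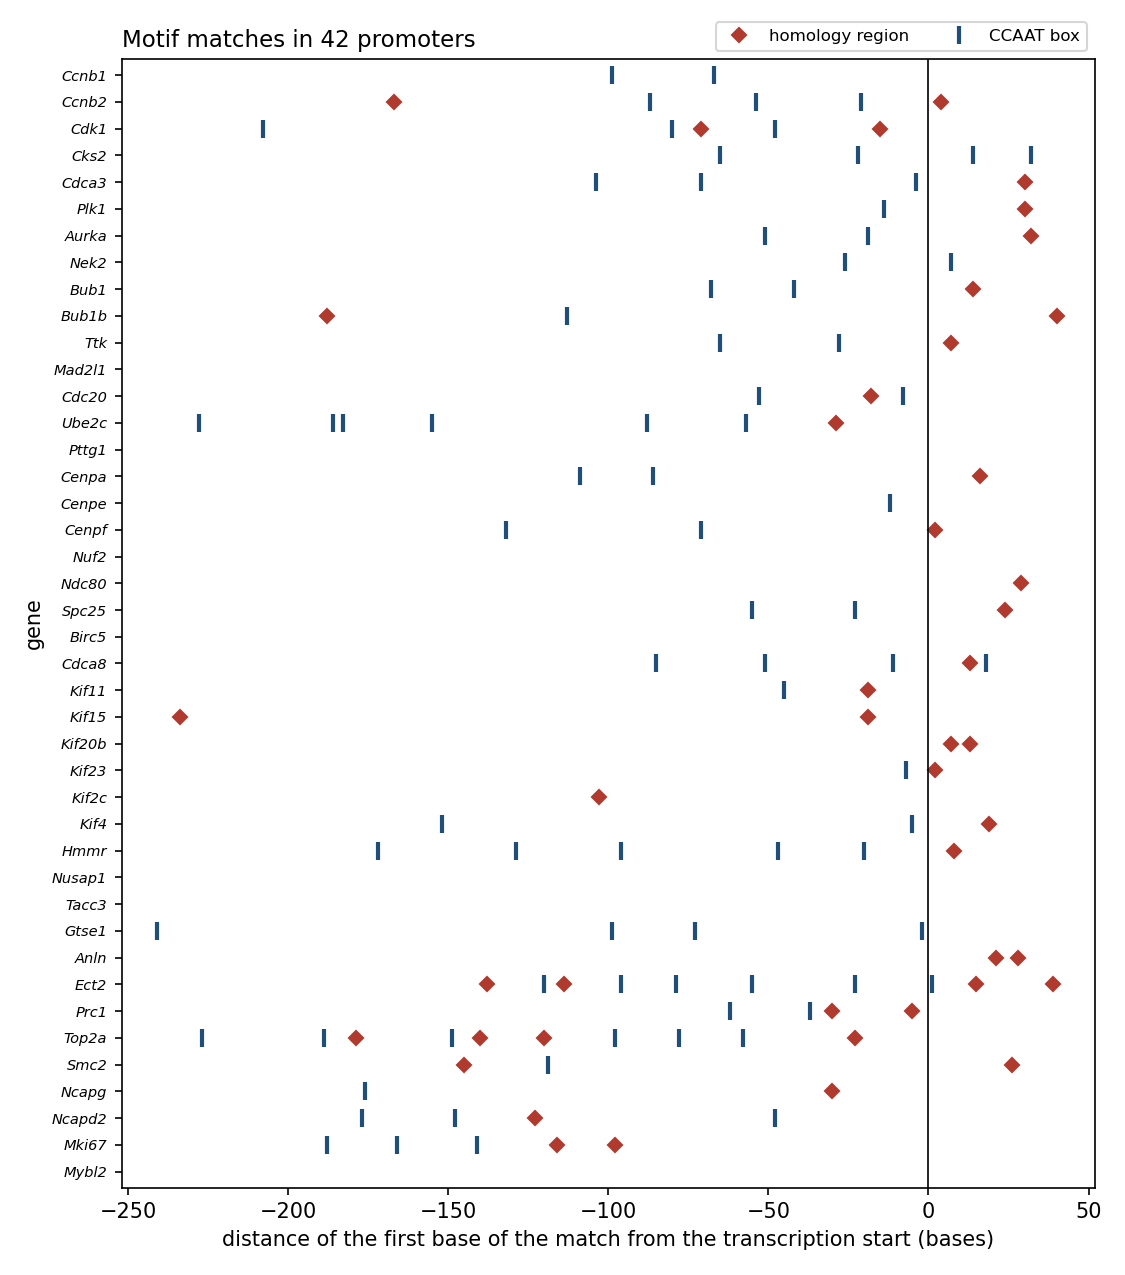
Matches of the homology region (diamonds) and of CCAAT (bars) in the promoters of 42 genes, by distance in bases from the transcription start, where 0 is the start. In 27 genes a homology region lies within 50 bases of the start, and *Ect2*, *Gtse1* and *Prc1* show the matches from both of their starts.

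Between 13892352 and 461077969 read pairs were counted per mouse, and *Glis3* ranged from 45.2 to 85.8 CPM (counts per 1000000 counts of the TMM-scaled library) in WT(ND) mice and from 125 to 174 CPM in WT(LID) mice, and in the *Glis3*-Pax8Cre groups from 85.8 to 105 CPM on the ND and 119.5 to 204 CPM on the LID. These counts cover the whole gene, so they do not show the loss of exon 5. The 11 follicular genes, led by *Tg*, summed to between 98439 and 332694 CPM in every mouse. *Glis3*-Pax8Cre(ND) replicate 4 stood apart. Its 16 thymocyte genes, among them the recombinase gene *Rag1* at 1120 CPM, summed to 4185 CPM, whereas replicates 1 to 3 of that group had 31.9 to 40.5 CPM and *Rag1* at 0 to 0.3605 CPM. Thymocytes divide fast, and the part of these genes in the results was not tested, so each comparison is also given without that mouse. In 3 other mice the same sum was over 200 CPM: WT(ND) replicate 1 (260.0), WT(LID) replicate 3 (381) and *Glis3*-Pax8Cre(LID) replicate 4 (567). The members of those mice stood at a median of 1.03, 0.973 and 1.19 times the mean of the other mice of their group, against 3.89 times in *Glis3*-Pax8Cre(ND) replicate 4.

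In WT mice all 51 mitosis and spindle genes were called higher on the LID than on the ND (20.9% of all genes tested). In *Glis3*-Pax8Cre mice 41 were called higher on the LID (13.1% of all genes), and all 51 without replicate 4 of *Glis3*-Pax8Cre(ND) (14.6%). Summed over the 51 genes, the WT(ND) mice 1 to 4 had 404, 417, 347 and 382 CPM and the WT(LID) mice had 2295, 2294, 2381 and 2652 CPM, so the WT diets did not overlap. For the *Glis3*-Pax8Cre(LID) mice the sum was 1941, 2821, 2649.7 and 2905 CPM, which overlaps WT(LID). For the *Glis3*-Pax8Cre(ND) mice it was 524, 587, 556 and 2154 CPM, with replicates 1 to 3 above every WT(ND) mouse and far below replicate 4, which lies between the diets. The group means were 387 ± 30.5 (SD, n = 4), 2406 ± 169 (SD, n = 4) and 2579 ± 438 CPM (SD, n = 4) in WT(ND), WT(LID) and *Glis3*-Pax8Cre(LID), and 556 ± 31.5 CPM (SD, n = 3) in *Glis3*-Pax8Cre(ND) without replicate 4.

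**Figure D2:**
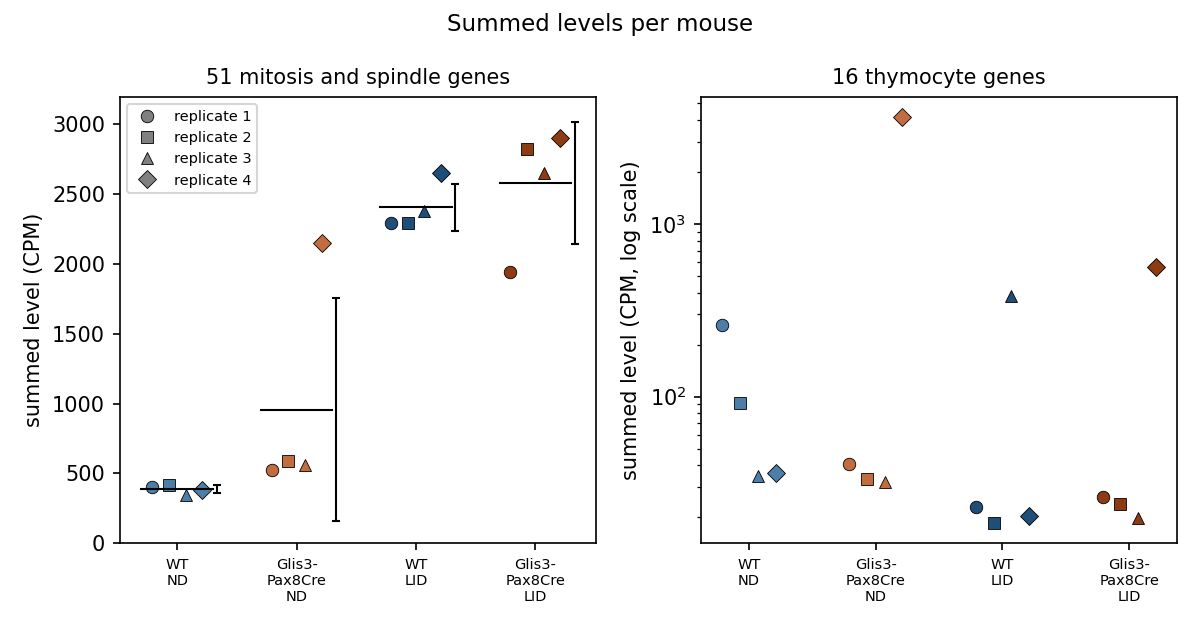
Left, summed level of the 51 mitosis and spindle genes in CPM in each mouse, with the group mean as a line and its SD as a bar; right, summed level of 16 thymocyte genes in CPM on a log axis. *Glis3*-Pax8Cre(ND) replicate 4 has 2154 CPM of the first and 4185 CPM of the second, and the other 3 mice of its group have 524 to 587 CPM of the first.

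In WT mice the LID raised all 51 genes, against 20.9% of all genes tested that rose (edgeR's quasi-likelihood test, Benjamini-Hochberg adjusted p under 0.05). The mice of the diets did not overlap for any of the 51 genes, which was so in this direction for 23.7% of all genes. The median log2FC was 3.06, or 8.33-fold, against -0.03 over all genes tested, and the largest adjusted p was 0.0337. The count was 51 without *Glis3*-Pax8Cre(ND) replicate 4 as well, when 24% of all genes rose. Genes of other cells moved with this diet, and their part was not tested: all 7 endothelial genes rose, with a summed level of 563 to 686 CPM in WT(ND) and 1463 to 1628 CPM in WT(LID), and of 6 fibroblast genes 3 rose and 2 fell. All 3 parathyroid genes fell, from a summed level of 3477 to 6005 CPM to one of 858 to 1676 CPM.

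*Ccnb1*, which encodes the cyclin B1 that activates CDK1 (Entrez 268697, mm10 chr13:100778739-100786486, minus strand), had 3.67, 4.59, 3.07 and 3.09 CPM in the WT(ND) mice and 48.3, 41.0, 37.7 and 61.3 CPM in the WT(LID) mice. Its log2FC was 3.71 (standard error, SE, 0.50, adjusted p = 6.03e-05), the second largest of the 51 after *Ube2c*. *Ccnb2*, the cyclin B2 gene, rose from 4.69, 4.86, 3.08 and 3.73 CPM to 42.2, 34.0, 35.7 and 49.0 CPM, log2FC 3.30. *Cdk1* itself rose from 5.42, 6.32, 6.20 and 6.34 CPM to 67.5, 61.8, 59.0 and 78.5 CPM, log2FC 3.46 (SE 0.31, adjusted p = 9.74e-07). *Cks2*, whose product is a small partner of CDK1, rose least in this group, from between 7.54 and 10.2 CPM to between 21.6 and 28.8 CPM, with log2FC 1.62. All 3 mitotic kinases rose, with a median log2FC of 3.55. *Plk1*, the polo-like kinase gene, went from 2.49 to 3.62 CPM in WT(ND) to 34.1 to 43.1 CPM in WT(LID), and *Nek2*, a kinase gene of centrosome separation, from 2.40 to 3.14 CPM to 29.6 to 41.6 CPM.

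The checkpoint and anaphase genes held the largest and the smallest changes of the 51. *Ube2c*, the ubiquitin-conjugating enzyme of the anaphase-promoting complex, had 3.98, 4.97, 2.94 and 3.61 CPM in the WT(ND) mice and 63.6, 49.9, 47.2 and 73.9 CPM in the WT(LID) mice, and its log2FC of 3.92 (SE 0.48, adjusted p = 2.38e-05) was the highest. *Pttg1*, which encodes securin, the inhibitor of separase (Entrez 30939, mm10 chr11:43420248-43426248, minus strand), was already at 39.4, 40.8, 43.1 and 37.3 CPM on the ND. It reached 56.2, 49.0, 45.5 and 54.5 CPM on the LID, log2FC 0.35 (SE 0.11, adjusted p = 0.0155). The WT diets thus did not overlap for *Pttg1* either, although the step was the smallest of the 51. *Bub1b*, the gene of the checkpoint protein BUBR1, rose by log2FC 2.45, from 7.23 to 12.5 CPM on the ND to 49.4 to 58.6 CPM on the LID.

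Genes of chromosomes and the spindle rose by similar steps. *Cenpf*, a kinetochore gene, went from between 4.89 and 9.01 CPM to between 60.8 and 75.9 CPM (log2FC 3.07), and *Incenp*, the scaffold of the chromosomal passenger complex, from between 10.4 and 12.6 CPM to between 38.6 and 49.6 CPM (log2FC 1.98). All 12 kinesin and spindle genes rose, with a median log2FC of 2.97, and *Kif11*, the gene of the Eg5 motor that separates spindle poles, reached 57.5, 60.4, 65.9 and 64.0 CPM from 7.82, 8.77, 5.76 and 6.50 CPM. *Prc1*, a gene of the central spindle, reached 97.6, 100.1, 95.7 and 126 CPM from 9.43, 10.2, 8.86 and 10.4 CPM (log2FC 3.43). *Mki67*, the proliferation marker whose protein coats mitotic chromosomes, rose from 30.6, 29.0, 13.3 and 26.9 CPM to 187, 208, 229 and 207 CPM. *Smc4*, a condensin ATPase gene, had the second smallest log2FC, 1.21 (SE 0.42, adjusted p = 0.0337), from 39.2 to 45.1 CPM to 93.9 to 106 CPM. The transcription factor genes *Foxm1* and *Mybl2* rose by log2FC values of 2.69 and 2.07.

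**Figure D3:**
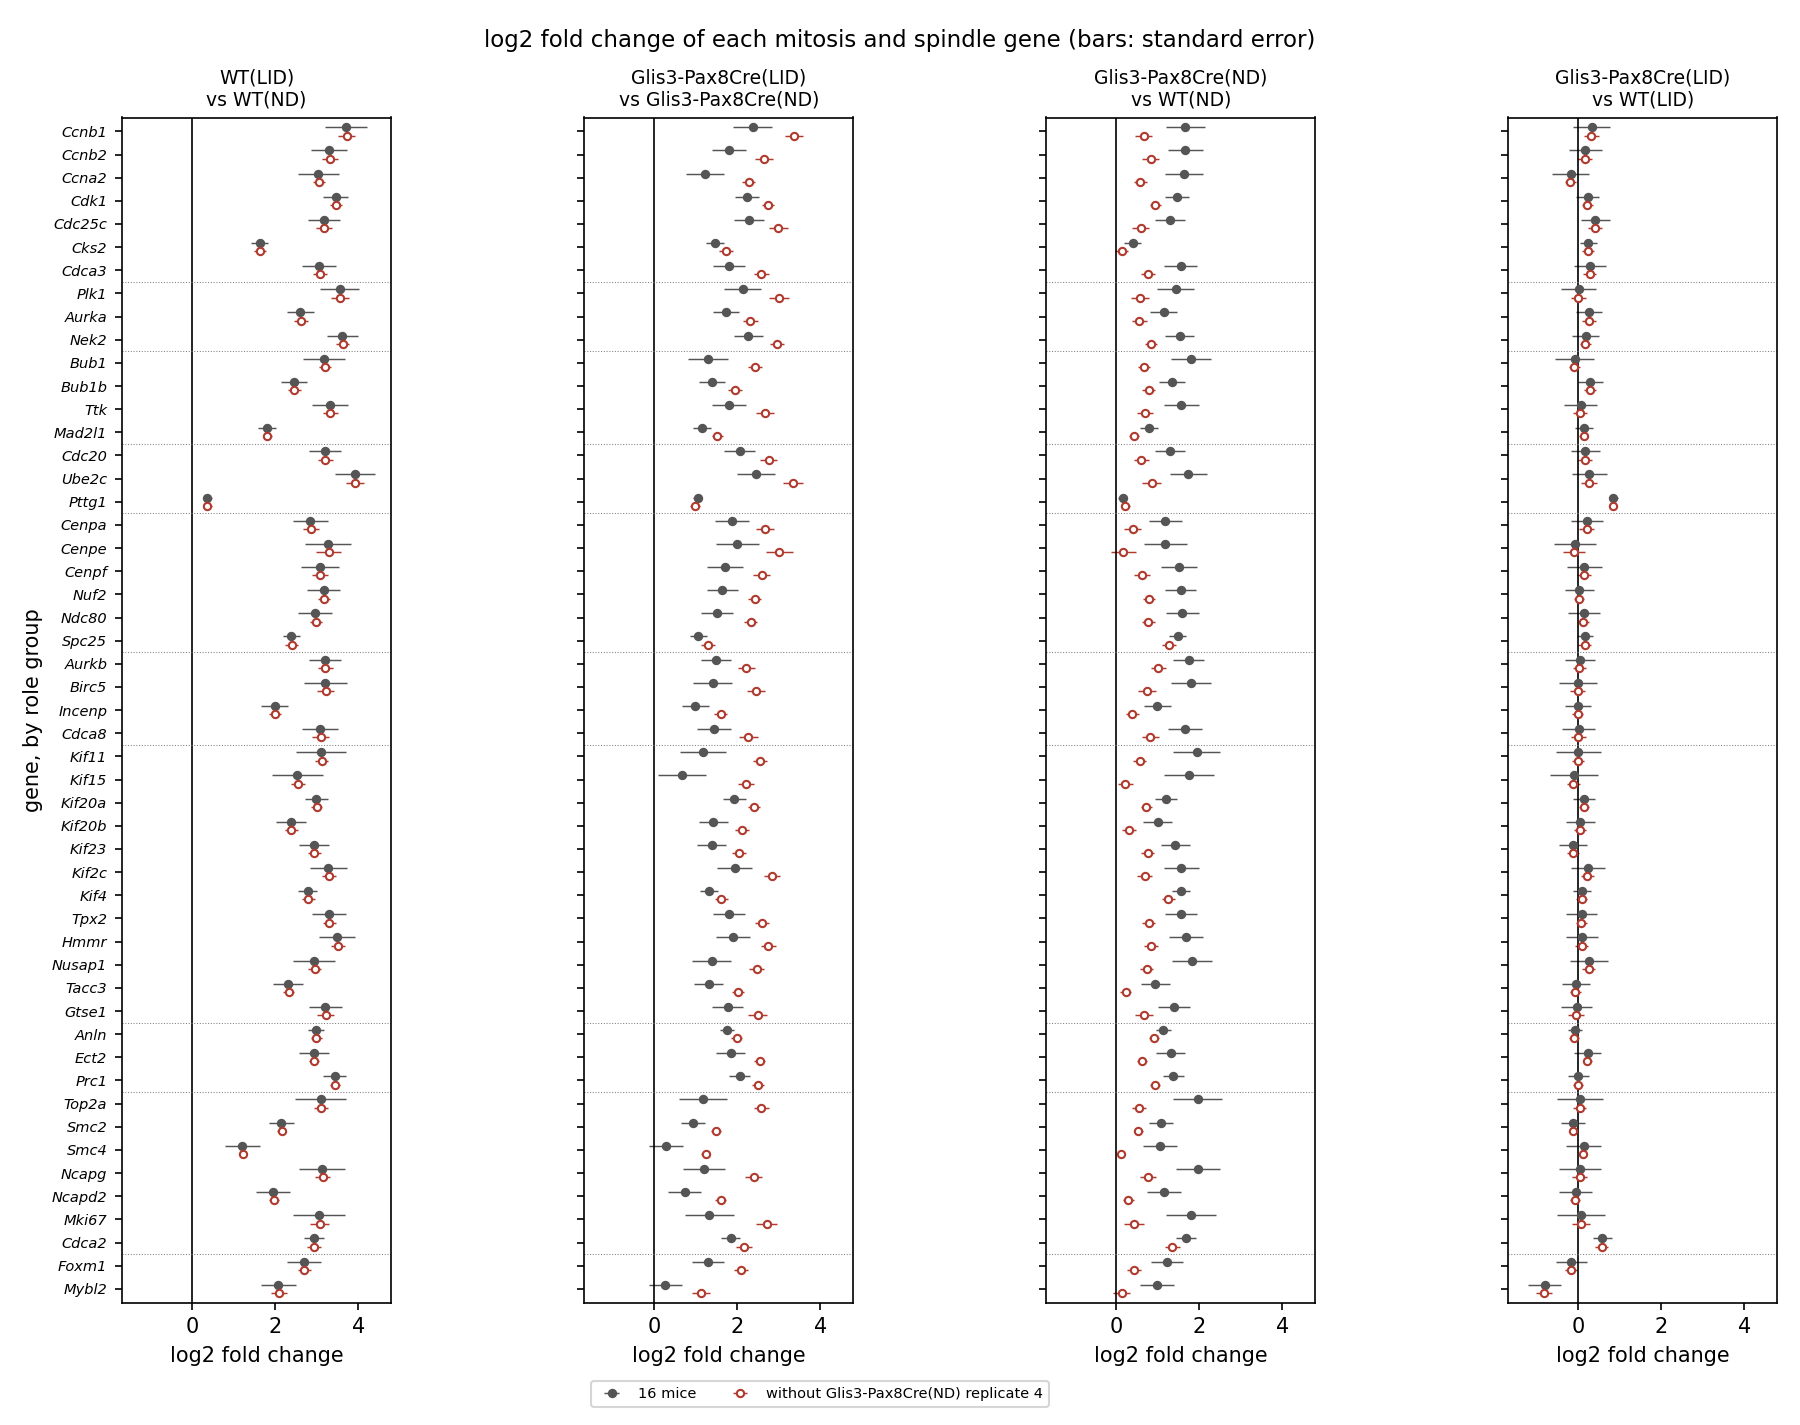
log2 fold change of each of the 51 genes (rows, in their role groups) in the 4 comparisons, with bars of 1 standard error, in the fit of 16 mice (filled) and without *Glis3*-Pax8Cre(ND) replicate 4 (open). In the WT diet comparison all lie between 0.35 and 3.92, and in the comparison of genotypes on the LID 48 of 51 lie within 0.5 of 0.

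Levels between genes were compared per kilobase of exon, with the length taken as the union of exons over all GENCODE transcripts of a gene. The counts were made on RefSeq genes, and a union can be longer than the transcripts present. The order of genes below depends on these lengths, which were 692 bases for *Cks2* and 2600 bases for *Ube2c*. In WT(ND), *Pttg1* had the highest mean level, at 20.1 CPM per kilobase, ahead of *Cks2* (12.2) and *Smc4* (8.23), and *Cdc25c*, which encodes a phosphatase that activates CDK1, had the lowest (0.172). In WT(LID), *Cks2* (37.5), *Cdc20* (27.9) and *Ccnb2* (26.3) led, followed by *Pttg1* (25.7). In *Glis3*-Pax8Cre(LID), *Pttg1* was again at the top, with 45.9 CPM per kilobase, next to *Cks2* at 44.2.

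In *Glis3*-Pax8Cre mice the LID raised 41 of the 51 genes (13.1% of all genes tested rose), with a median log2FC of 1.49 against -0.03 over all genes. The mice of the diets did not overlap for 29 of the 51, against 11.8% of all genes in this direction. Without replicate 4 of *Glis3*-Pax8Cre(ND), all 51 rose (14.6% of all genes), with a median log2FC of 2.42, or 5.34-fold, and none overlapped between diets (17.3% of all genes). Of the 51, 10 were called without that mouse and not with it: *Bub1*, *Ccna2*, *Kif11*, *Kif15*, *Mki67*, *Mybl2*, *Ncapd2*, *Ncapg*, *Smc4* and *Top2a*. Replicate numbers are not stated to mark pairs, and were read as pairs here from correlations in these same data. With the number as a block in all 16 mice, 45 of 51 genes rose (12.7% of all genes), all but *Kif11*, *Kif15*, *Mybl2*, *Ncapd2*, *Smc4* and *Top2a*. In the 8 mice of these groups alone, 20 rose without the block (8.29% of all genes) and 48 with it (9.69%), all but *Kif15*, *Smc4* and *Mybl2*. With replicate 4 kept, *Bub1*, *Ccna2*, *Mki67* and *Ncapg* thus passed with either block and not without one. *Bub1* had a blocked log2FC of 1.59 in 16 mice (adjusted p = 0.0263) and 1.80 in 8 (adjusted p = 0.0192). *Top2a*, with 1.57 in 16 mice (adjusted p = 0.0735) and 1.89 in 8 (adjusted p = 0.0239), depended on the mice in the fit, as did *Ncapd2* (adjusted p = 0.0807 and 0.0405). All 51 rose in the 7 mice of these groups alone without replicate 4 (11.4% of all genes), an alternative chosen after seeing the data. Genes of other cells moved with the diet here too, and their part was not tested. All 3 parathyroid genes fell, with a summed level of 3289 to 5180 CPM on the ND and 225 to 2099 CPM on the LID. Of the 6 macrophage genes 4 fell, of the 7 endothelial genes 2 fell, and of the 6 fibroblast genes 3 rose and 1 fell.

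The single genes show how far that mouse reaches. *Ccnb1* had 5.52, 5.84, 5.52 and 28.1 CPM on the ND and 42.1, 65.0, 53.6 and 73.8 CPM on the LID. Its log2FC was 2.37 (SE 0.48, adjusted p = 0.00288), and 3.37 (SE 0.22) without replicate 4. For *Ccnb1* every ND mouse, replicate 4 included, was below every LID mouse. *Mki67* was at 25.3, 38.6, 35.1 and 248 CPM on the ND and at 167, 210.3, 248 and 248 CPM on the LID, so that replicate 4 was level with the highest LID mice. Its log2FC was 1.33 (adjusted p = 0.114) with all mice, 1.76 with the replicate block in 16 mice (adjusted p = 0.0495), 2.04 with it in 8 (adjusted p = 0.0179) and 2.71 without replicate 4 (adjusted p = 4.29e-06). *Smc4* was at 40.2, 47.6, 49.0 and 218 CPM on the ND and at 91.5, 109.8, 102 and 128 CPM on the LID. Here replicate 4 exceeded all LID mice, and the log2FC went from 0.28 (adjusted p = 0.652) to 1.23 without it (adjusted p = 9.95e-07). *Kif11* was at 9.54, 11.9, 10.1 and 77.8 CPM on the ND and at 45.5, 61.3, 64.9 and 75.4 CPM on the LID, with log2FC values of 1.17 (adjusted p = 0.139), 1.55 with the replicate block in 16 mice (adjusted p = 0.0596), 1.84 with it in 8 (adjusted p = 0.0201) and 2.54 without replicate 4 (adjusted p = 1.39e-07).

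The genes were not evenly higher in replicate 4. Its ratio to the mean of replicates 1 to 3 had a median of 3.89 and ran from 0.845 (*Pttg1*) to 8.58 (*Kif15*, a spindle kinesin gene). By role, the median ratio was lowest among the 3 cytokinesis genes (2.44) and highest among the 7 genes of mitotic chromosome structure (4.77). In 13 of 51 genes replicate 4 was at or above the lowest WT(LID) mouse, which was so for 1, 0 and 1 genes in replicates 1 to 3.

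**Figure D4:**
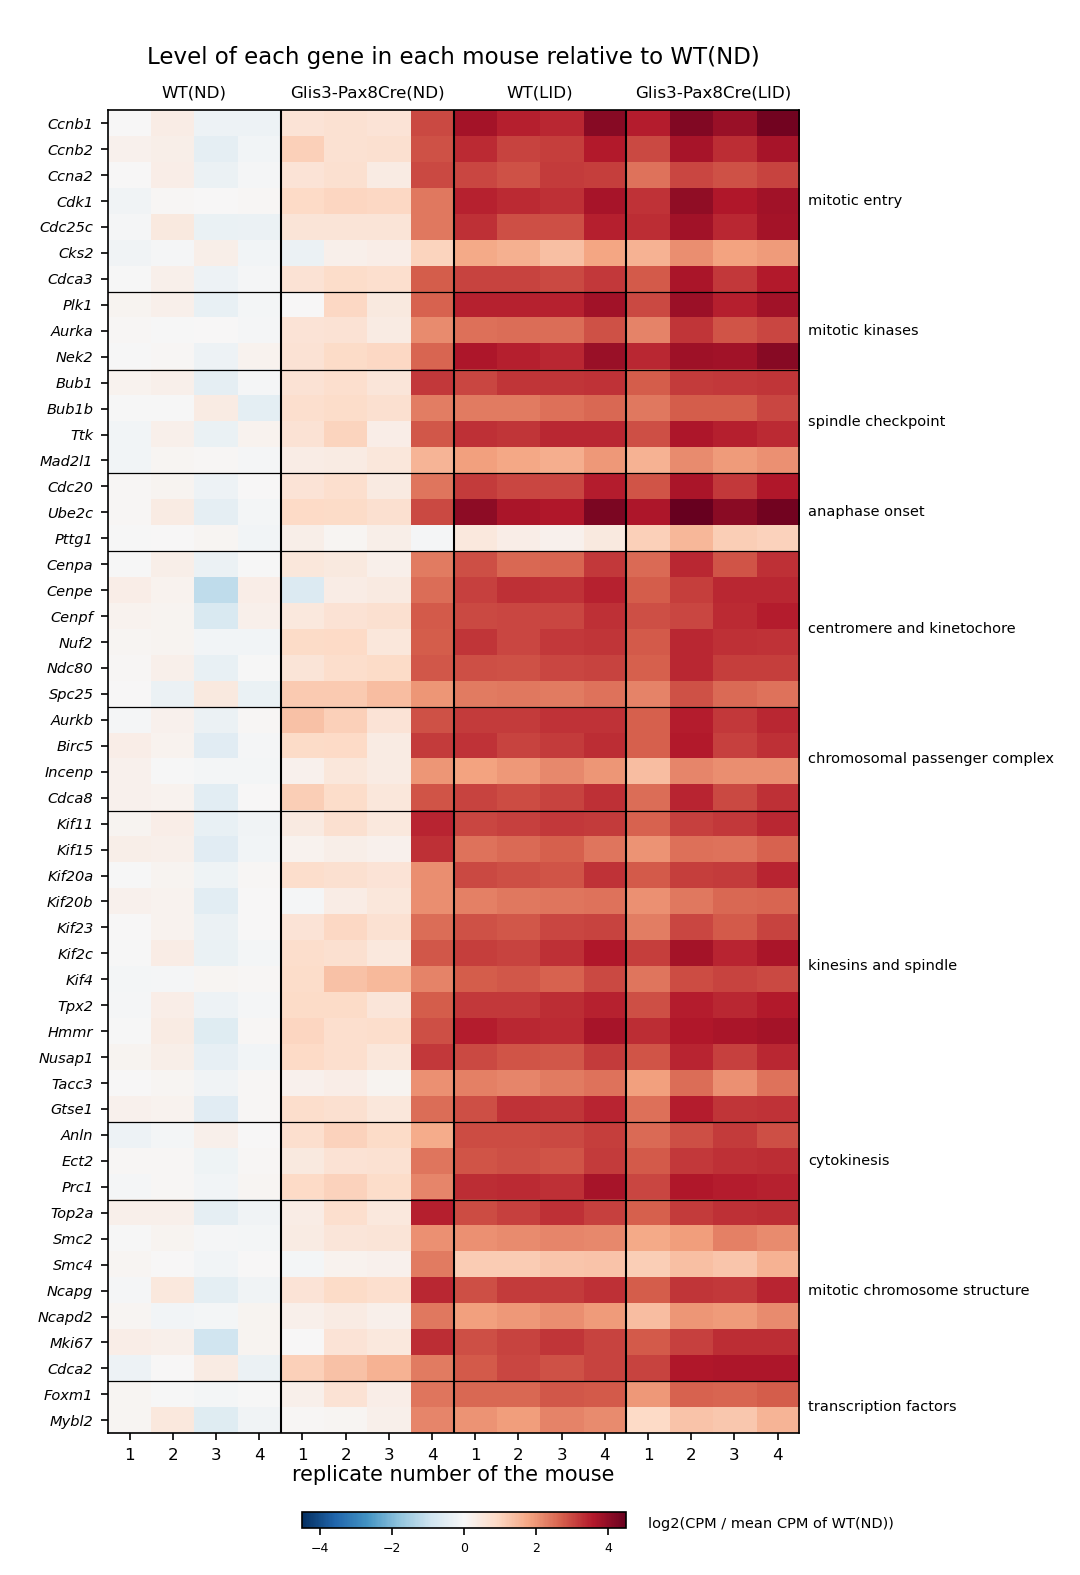
Level of each of the 51 genes (rows, in their role groups) in each of the 16 mice (columns) as log2 of its CPM over the mean CPM of WT(ND); red is higher and blue lower. *Glis3*-Pax8Cre(ND) replicate 4 exceeds each of replicates 1 to 3 in every gene except *Pttg1*, where its ratio to their mean is 0.845, and all 4 WT(LID) mice are redder than the WT(ND) mice in every gene.

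On the ND, most of the genes were higher in *Glis3*-Pax8Cre mice. In *Glis3*-Pax8Cre(ND) against WT(ND), 41 of 51 were higher and 0 lower (10.3% and 9.25% of all genes tested), with a median log2FC of 1.48, or 2.79-fold, against 0.02 over all genes. Without replicate 4, 36 of 51 were higher and 0 lower (11.1% and 8.36% of all genes), but the median log2FC fell to 0.66, or 1.58-fold. All 36 were also among the 41. The mice of the genotypes did not overlap for 41 of the 51 genes, against 9.58% of all genes in this direction, and without replicate 4 the number was also 41, against 14.4%. The second count is no check on the first. Replicate 4 exceeded each of replicates 1 to 3 in every gene but *Pttg1*, so leaving it out could change only *Pttg1*, which still overlapped. Mouse by mouse, replicates 1, 2 and 3 exceeded all 4 WT(ND) mice in 43, 47 and 48 of the 51 genes, and replicate 4 in 50. The share over all genes was not counted for single mice, so these numbers only describe the 51 genes. In the 8 ND mice alone 6 genes were higher (5.39% of all genes), and 32 in the 7 ND mice without replicate 4 (8.33%). The 41 calls became 27 without WT(ND) replicate 1 (6.69% of all genes) and 21 without WT(ND) replicate 4 (6.72%). All 6 macrophage genes also rose in this comparison, with a summed level of 162 to 240.4 CPM in WT(ND) mice and 274 to 326 CPM in the *Glis3*-Pax8Cre(ND) mice. The 11 follicular genes, of which 2 were higher and 3 lower, summed to 126163 to 186229 CPM in *Glis3*-Pax8Cre(ND) and to 204010 to 307577 CPM in WT(ND). This sum was mostly *Tg* and cannot be read as the share of follicular cells. The part of the macrophage or follicular genes was not tested.

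Some genes were clearly raised in each of the replicates 1 to 3. *Cdca2*, which encodes a partner of protein phosphatase 1 on anaphase chromosomes (Entrez 108912, mm10 chr14:67676354-67715841, minus strand), had 2.83, 3.37, 4.30 and 2.79 CPM in WT(ND) mice and 6.96, 8.24, 9.77 and 16.9 CPM in the *Glis3*-Pax8Cre(ND) mice. Its log2FC was 1.67 (SE 0.24, adjusted p = 0.000334) and, without replicate 4, 1.35 (SE 0.18, adjusted p = 0.000168), the largest of the 51 in that fit. *Spc25*, an NDC80 complex gene, and *Kif4*, a chromosome-bound kinesin gene, followed with 1.26 and 1.25 without replicate 4. *Cdk1* was at 11.4, 11.8, 11.6 and 31.5 CPM, with all 4 mice above the 5.42 to 6.34 CPM of WT(ND), and its log2FC was 1.45 and, without replicate 4, 0.94 (adjusted p = 0.000564). *Prc1* was at 18.3, 19.9, 17.1 and 45.0 CPM, also above every WT(ND) mouse, with log2FC values of 1.37 and, without replicate 4, 0.93 (adjusted p = 0.000292). *Ccnb1* and *Ccnb2* had log2FC values of 1.66 each, and of 0.66 (adjusted p = 0.0357) and 0.82 (adjusted p = 0.0106) without replicate 4.

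For other genes the size of the difference, or the call, depended on replicate 4. The largest log2FC values with all mice were those of the condensin gene *Ncapg* (1.97), the topoisomerase gene *Top2a* (1.96) and *Kif11* (1.93), and without replicate 4 they were 0.77, 0.55 and 0.56. *Cdc25c*, *Foxm1*, *Incenp*, *Mki67* and *Plk1* were called with the mouse and not without it. *Foxm1* was at 6.90, 9.25, 7.17 and 31.4 CPM against 5.52 to 6.29 CPM in WT(ND), and its adjusted p went from 0.0402 to 0.0728. *Pttg1* overlapped WT(ND), at 48.2, 42.9, 47.9 and 39.1 CPM, with log2FC 0.15 (adjusted p = 0.363). *Mybl2* was at 1.94, 1.99, 2.20 and 8.74 CPM against 1.29 to 2.61 CPM, and its log2FC went from 0.99 (adjusted p = 0.103) to 0.13 without replicate 4 (adjusted p = 0.716). *Cks2* and *Mad2l1*, a checkpoint gene, had the next smallest log2FC values with all mice, 0.40 and 0.78, of which that of *Mad2l1* was called (adjusted p = 0.0217).

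**Figure D5:**
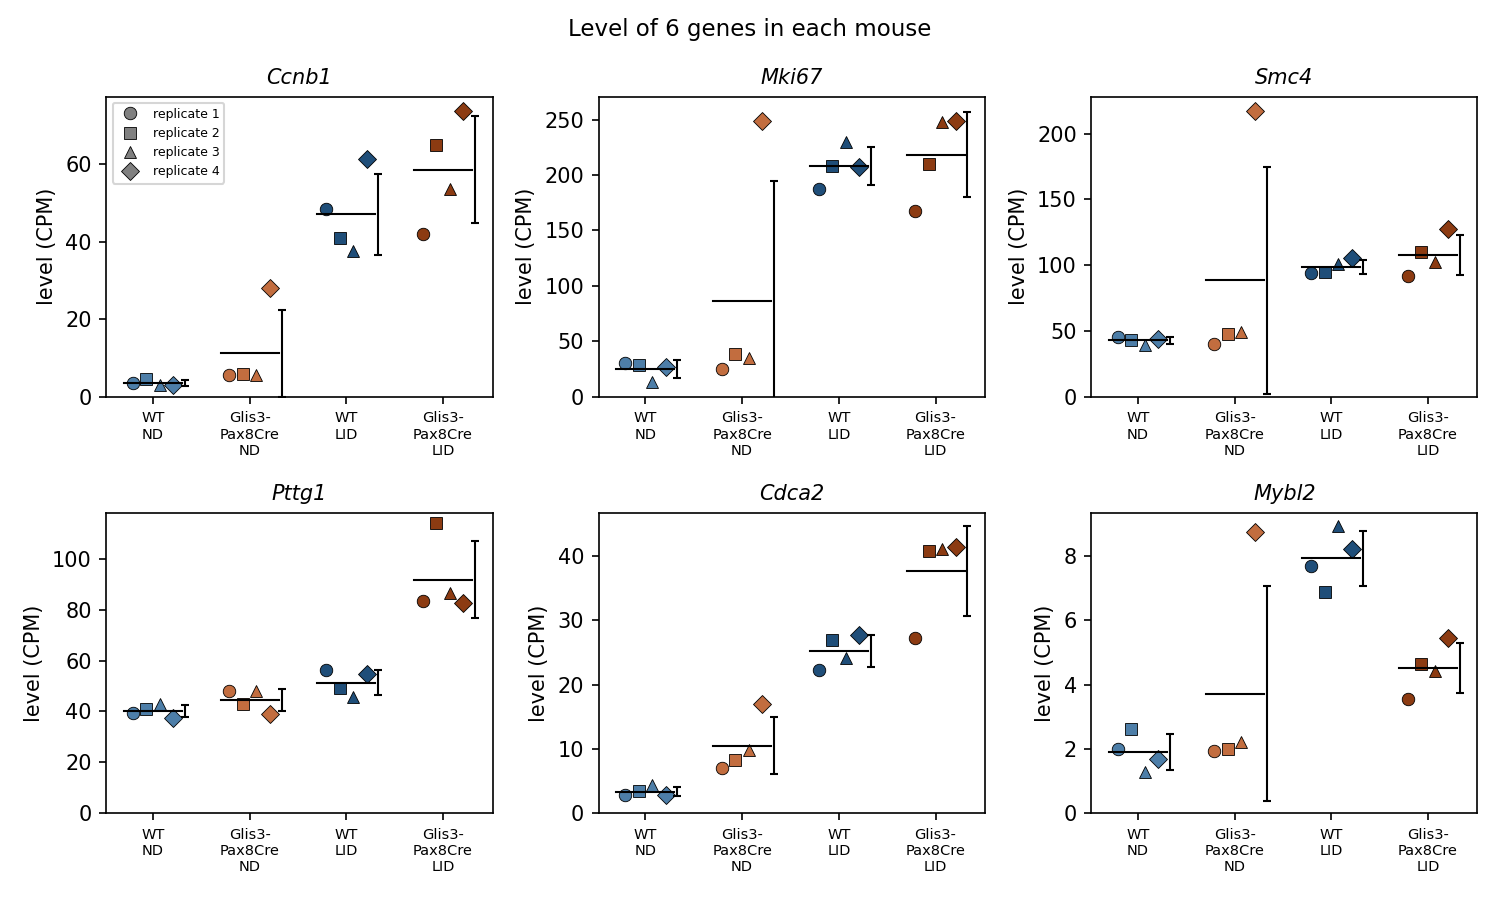
Level in CPM of *Ccnb1*, *Mki67*, *Smc4*, *Pttg1*, *Cdca2* and *Mybl2* in each mouse of the 4 groups, with the group mean as a line and its SD (n = 4) as a bar, which ends at 0 where it would cross it. *Pttg1* is highest in *Glis3*-Pax8Cre(LID) (82.8 to 114 CPM), *Mybl2* is lower there (3.54 to 5.45 CPM) than in WT(LID) (6.89 to 8.92 CPM), and *Glis3*-Pax8Cre(ND) replicate 4 exceeds its group in all but *Pttg1*.

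The comparison of genotypes on the LID bears on whether cell cycle genes stay induced without GLIS3 in follicular cells. Of the 51 genes, 1 was higher and 0 lower in the *Glis3*-Pax8Cre(LID) mice, with WT(LID) as reference, although 14.9% of all genes tested were higher and 15.4% lower. The median log2FC was 0.08 against 0.01 over all genes, and 48 of the 51 values were within 0.5 of 0. The standard errors had a median of 0.38, and the 95% confidence intervals of 29 genes lay wholly within a 2-fold change in either direction. Without *Glis3*-Pax8Cre(ND) replicate 4, which enters this comparison only through the shared spread, filter and scaling, the median standard error was 0.15 and 49 intervals lay within that range. In that fit 2 genes were higher and 1 lower (17.1% and 18.9% of all genes). Other cells' genes moved here: 6 of the 7 endothelial genes fell, with a summed level of 643 to 817 CPM in *Glis3*-Pax8Cre(LID) against 1463 to 1628 CPM in WT(LID). Of the 6 fibroblast genes 3 were lower, with sums of 832 to 1494 CPM against 2227 to 2653 CPM. Of the 11 follicular genes 4 were higher and 5 lower, with sums of 98439 to 165316 CPM against 221351 to 332694 CPM. These follicular sums were mostly *Tg*, which held 7.87% to 13.2% of counts against 19.6% to 26.8%. The median log2FC of the 11 genes was -0.16, so their sums cannot be read as the share of follicular cells. None of the 3 sums overlapped between genotypes, and their part was not tested.

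The cyclin B genes showed overlap between genotypes. *Ccnb1* was at 42.1 to 73.8 CPM in *Glis3*-Pax8Cre(LID) and at 37.7 to 61.3 CPM in WT(LID), log2FC 0.32 with a 95% confidence interval from -0.65 to 1.28. *Ccnb2* was at 32.1, 53.4, 41.0 and 53.5 CPM against 34.0 to 49.0 CPM in WT(LID), with log2FC 0.16 (interval from -0.70 to 1.02). *Prc1* was at 78.8, 119, 114 and 107 CPM against 95.7 to 126 CPM, and its log2FC of -0.00 had an interval from -0.53 to 0.53. *Glis3*-Pax8Cre(LID) replicate 1 was the low mouse of its group, with the members at a median of 0.681 times the mean of the other 3.

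*Pttg1*, *Cdca2* and *Mybl2* were the exceptions. *Pttg1* had 83.4, 114, 86.7 and 82.8 CPM in the *Glis3*-Pax8Cre(LID) mice and 56.2, 49.0, 45.5 and 54.5 CPM in WT(LID) mice, with no overlap, which in this direction held for 1 of 51 genes and 17.7% of all genes. Its log2FC was 0.84 (SE 0.11, adjusted p = 3.39e-05). Securin mRNA was thus 1.79-fold higher, and *Pttg1* was the only one of the 51 genes called with 16 mice. *Cdca2* was at 27.2, 40.8, 41.1 and 41.4 CPM against 22.3, 27.0, 24.1 and 27.7 CPM, where *Glis3*-Pax8Cre(LID) replicate 1 overlaps the highest WT(LID) mouse. Its log2FC was 0.58 (SE 0.23, adjusted p = 0.0712) and, without *Glis3*-Pax8Cre(ND) replicate 4, 0.57 (SE 0.16, adjusted p = 0.0114). *Mybl2*, which encodes B-MYB (Entrez 17865, mm10 chr2:163054635-163084687, plus strand), was at 3.54, 4.64, 4.41 and 5.45 CPM against 7.69, 6.89, 8.92 and 8.22 CPM, so every *Glis3*-Pax8Cre(LID) mouse was below every WT(LID) mouse (17.9% of all genes in this direction). Its log2FC was -0.82 (SE 0.40, adjusted p = 0.145) and, without the same mouse, -0.83 (SE 0.19, adjusted p = 0.00296). *Foxm1*, the partner of B-MYB at these promoters, was at 22.5, 37.4, 36.0 and 38.5 CPM against 35.1 to 41.3 CPM, log2FC -0.17 (adjusted p = 0.782). The next highest value was that of *Cdc25c* (0.41, adjusted p = 0.416) and the next lowest that of *Ccna2*, the cyclin A2 gene (-0.18, adjusted p = 0.808).

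The interaction of genotype and diet, the LID change in *Glis3*-Pax8Cre mice less that in WT mice, was called for 7 of the 51 genes, 1 positive and 6 negative (4.43% and 7.41% of all genes tested), with a median of -1.37. The 4 groups enter all of these comparisons, so the interaction is no further evidence beside them. *Pttg1* was the positive one, with an interaction log2FC of 0.69 (SE 0.15, adjusted p = 0.00798), since its LID step was 0.35 in WT and 1.05 in *Glis3*-Pax8Cre mice. The negative ones were *Spc25* (-1.32), *Aurkb* (-1.71), the gene of the chromosomal passenger kinase, *Kif4* (-1.47), the cytokinesis genes *Anln* (-1.23) and *Prc1* (-1.37), and *Cdca2* (-1.09). These sizes include replicate 4 of *Glis3*-Pax8Cre(ND). Without that mouse the lowest value in each role group of these genes, which need not be that of the same gene, was nearer 0. It went from -1.53 to -1.11 for kinetochore, from -1.81 to -0.99 for chromosomal passenger and from -1.94 to -1.18 for kinesin and spindle genes. For cytokinesis genes it went from -1.37 to -1.01, and for chromosome structure genes from -1.93 to -0.78. Without replicate 4 of *Glis3*-Pax8Cre(ND) the median was -0.59, and 19 genes were called, 1 positive and 18 negative (4.28% and 9.01% of all genes), among them all 7. Leaving out replicate 1, 2 or 3 of that group instead gave 14, 12 and 18, all but 1 of them negative each time (7.26%, 6.6% and 7.17% of all genes were negative). Without replicate 4 the interaction of *Mybl2* was -0.95 (adjusted p = 0.0344), with LID steps of 2.08 in WT and 1.13 in *Glis3*-Pax8Cre mice. *Cdk1* had -0.72 (adjusted p = 0.0217), and *Ccnb1* -0.35 (adjusted p = 0.440), which was not called.

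Other genes of the cell cycle, in lists drawn up by name, were counted the same way, against the shares of all genes given above for each comparison. Of 59 further mitotic genes, 56 rose and 1 fell with the LID in WT mice, 38 were higher and 0 lower in *Glis3*-Pax8Cre(ND) than in WT(ND) (28 and 0 without replicate 4), and 2 were higher and 0 lower between the LID groups. Of 41 DNA replication genes, 36 rose with the LID in WT mice (20.9% of all genes), with a median log2FC of 1.09. Between the LID groups 2 of them were lower and 0 higher in *Glis3*-Pax8Cre mice (15.4% and 14.9% of all genes), with a median of -0.24, and without *Glis3*-Pax8Cre(ND) replicate 4, 17 were lower and 0 higher, when 18.9% of all genes were lower. They summed to 1318, 1312, 1373 and 1305 CPM in WT(LID) mice and to 916, 1208, 1152 and 1231 CPM in the *Glis3*-Pax8Cre(LID) mice, so the groups did not overlap, whereas the sums of the 51 genes did. On the ND 5 of the 41 were higher in *Glis3*-Pax8Cre mice (10.3% of all genes), and 3 without replicate 4 (11.1% of all genes), which is close to the share over all genes. Of 11 genes of the DREAM and MuvB complexes, which hold the mitotic promoters silent or active, 5 rose in WT mice on the LID, and between the LID groups 1 was higher.

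A stricter call rule and a smaller set of mice were counted in all comparisons. At the thresholds the study used, an adjusted p under 0.01 and a fold over 2, 49 of the 51 genes rose with the LID in WT mice (7.68% of all genes tested) and 31 in *Glis3*-Pax8Cre mice (2.93%). Under that rule 10 were higher and 0 lower on the ND (2.29% and 1.86% of all genes), 0 were higher and 0 lower between the LID groups (2.92% and 5.02%), and the interaction was called upward for 0 and downward for 3 (0.74% and 2.89%). Without the 4 mice over 200 CPM of thymocyte genes, at an adjusted p under 0.05, all 51 rose with the LID in WT mice (20.6% of all genes) and all 51 in *Glis3*-Pax8Cre mice (12.4%). In those 12 mice, 28 were higher and 0 lower on the ND (6.88% and 6.06%), 1 was higher and 1 lower between the LID groups (12% and 14%), and the interaction was positive for 1 and negative for 9 (3.03% and 5.94%).

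Reads in stretches shared by 2 genes cannot be assigned to one of them with certainty. Because the counting ignored strand, this holds for genes on opposite strands too. Of the 51 genes, 11 overlap another entry by their whole spans, introns included. Whether exons overlap was not looked at, so these overlaps need not affect the counts. On the same strand are *Foxm1* (with *Tex52*, 377 bases), *Mybl2* (with *Mir7003*, 66 bases) and *Smc4* (with *Mir15b* and *Mir16-2*, 64 and 95 bases), among others. On opposite strands are, among others, *Ccna2* (with *Exosc9*), *Cdc20* (with *Elovl1*) and *Ncapg* (with *Lcorl*).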

How the data were processed

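RNA-Seq was done on thyroid glands of 16 mice, 4 per group. The authors isolated RNA from whole glands, removed read pairs whose mean base quality was not above 20, and aligned the rest with STAR 2.5 (mm10), then counted pairs per RefSeq gene, without strand, using featureCounts 1.5.0-p1. The deposited values are raw counts per gene, which the authors did not normalize. The authors name NextSeq500 and NovaSeq instruments without giving the instrument of each library, and none was fitted as a term.

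These counts went into edgeR 4.0.16 (R 4.3.3): filterByExpr on the 4 groups (16630 genes), TMM, 1 mean per group over all 16 mice, the robust quasi-likelihood test and Benjamini-Hochberg adjustment over all genes tested. Calls need an adjusted p below 0.05. Standard errors are the log2FC divided by the square root of F. Replicates are different mice, and in 24 pairs within groups the lowest chi-squared over degrees of freedom was 34.5, so none was counted as a duplicate. Equal replicate numbers are not stated to mark mice handled together. The deviations of same-numbered mice from their group means correlated over 0.1 in all 4 pairs only between the *Glis3*-Pax8Cre groups (0.21, 0.29, 0.63 and 0.65). The numbers were therefore read as pairs there only, on the basis of these same data. The value of 0.65 is that of the replicate 4 mice, which both had over 200 CPM of thymocyte genes. In the other comparisons the block was fitted only as an alternative. The lowest total, 13892352 counts, belongs to *Glis3*-Pax8Cre(ND) replicate 1, where a count of 0 allows up to 3 counts, or 0.216 CPM; such limits cover counting error only. Exon lengths are from GENCODE and promoters from RefSeq.

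The 51 genes, the other lists and the tests were chosen with earlier results of these data known. Named with values are the genes the study names, the most abundant of each role, the called genes of the genotype comparisons and the interaction (of those, the 15 largest), and the 3 highest and lowest of each comparison, with a few more named where a count or a level per kilobase is described. Alternatives were DESeq2 1.42.0, other scalings and filters, the mice of 2 groups only, the replicate block, *Tg* left out, the study's thresholds and each mouse left out. Leaving out the 4 mice over 200 CPM of thymocyte genes, and replicate 4 together with the mice of other groups, were chosen after seeing the data.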

Additional observations from a re-analysis of the deposited data

Results flagged for a closer look

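Dixon's test covered 80 sets of 4 mice: 18 genes and the sums of the mitosis and thymocyte genes, in each of 4 groups. In 27 of these a mouse was far from the other 3, which chance gives in about 1 of 20 for 1 set. The sets share the same mice, the genes moved together, and the mitosis sum contains the 18 genes. The 27 therefore cannot be set against that rate, and only list where a mouse stood apart. Of the 27, 17 were in *Glis3*-Pax8Cre(ND), and in each of these the mouse was replicate 4. It had a summed level of 2154 CPM for the mitosis and spindle genes and 4185 CPM for the thymocyte genes, and single levels of 28.1 CPM for *Ccnb1*, 29.6 for *Ccnb2*, 31.5 for *Cdk1*, 19.9 for *Plk1*, 48.2 for *Bub1b*, 52.7 for *Cenpf*, 44.5 for *Incenp*, 77.8 for *Kif11*, 45.0 for *Prc1*, 248 for *Mki67*, 31.4 for *Foxm1*, 8.74 for *Mybl2*, 30.1 for *Ube2c*, 17.2 for *Nek2* and 218 for *Smc4*, all in CPM and all above the other 3 mice.

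The thymocyte sums of WT(LID) replicate 3 (381 CPM) and *Glis3*-Pax8Cre(LID) replicate 4 (567 CPM) were also far above their groups. In WT(LID), replicate 4 was high in *Plk1* (43.1 CPM), *Cenpf* (75.9 CPM) and *Prc1* (126 CPM). In *Glis3*-Pax8Cre(LID), replicate 1 was low in *Cdca2* (27.2 CPM) and *Foxm1* (22.5 CPM), and replicate 2 was high in *Pttg1* (114 CPM). In WT(ND), replicate 1 was low in *Cdk1* (5.42 CPM) and replicate 3 low in *Cenpf* (4.89 CPM).

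The change with the LID differed between genotypes, by the interaction term of the edgeR fit, for *Pttg1* (log2 difference 0.69), *Spc25* (-1.32), *Aurkb* (-1.71), *Kif4* (-1.47), *Anln* (-1.23), *Prc1* (-1.37) and *Cdca2* (-1.09). These are values of the 16 mice, with *Glis3*-Pax8Cre(ND) replicate 4 included. Without it the median interaction of the 51 genes went from -1.37 to -0.59.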

How the results depend on the processing

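Refitting 62 results for named genes under the alternatives gave 1606 values. The direction turned in 0 of these, and 28 of the 62 results kept their call in every alternative. Many of the 62 were picked as called or extreme in these same data, and the alternatives share most mice. A kept direction is therefore no independent evidence. Shares of all genes are in brackets, and none is given for DESeq2. Between the LID groups, where 1 of 51 genes was called, DESeq2 called 2. Library size alone called 2 higher and 0 lower (24.8% and 11.1%), and the 8 mice of these groups alone 2 and 1 (17% and 18.2%). The replicate block called 2 and 0 in 16 mice (14% and 15.3%) and 2 and 1 in those 8 (14.3% and 16.4%). The fit without the 4 mice over 200 CPM of thymocyte genes called 1 and 1 (12% and 14%). The study's thresholds, an adjusted p under 0.01 and a fold over 2, called 0 and 0 (2.92% and 5.02%). Leaving out 1 mouse gave 1 to 3. The 3 came without *Glis3*-Pax8Cre(ND) replicate 4, as 2 higher and 1 lower (17.1% and 18.9%). Without *Glis3*-Pax8Cre(LID) replicate 1 there were 2 higher and 0 lower (12.8% and 14.2%). Between the ND groups (41, all higher), the 8 mice alone gave 6 (5.39%), with the replicate block also 6 (3.49%). The study's thresholds gave 10 (2.29%). Leaving out 1 mouse gave 21 to 48, with 27 without WT(ND) replicate 1 (6.69%) and 21 without WT(ND) replicate 4 (6.72%). The 48 came without *Glis3*-Pax8Cre(ND) replicate 1 (10%). The LID change in WT mice (51) stayed between 45 and 51, and the 45 of DESeq2 leave out 6 genes to which it gave no adjusted p. Leaving out 1 mouse gave 50 to 51, when 18.2% to 24% of all genes rose. The LID change in *Glis3*-Pax8Cre mice (41) was called for 20 genes in its 8 mice alone (8.29%) and for 35 to 51 with 1 mouse left out. The 35 came without *Glis3*-Pax8Cre(ND) replicate 2 (10.4%) and the 51 without its replicate 4 (14.6%). The replicate block gave 45 in 16 mice (12.7%) and 48 in 8 (9.69%). For the interaction (7), DESeq2 called 23 and the study's thresholds 3, all negative (2.89%). Leaving out 1 mouse gave 5 to 19, with 14, 12, 18 and 19 without *Glis3*-Pax8Cre(ND) replicates 1, 2, 3 and 4. All but 1 were negative each time, when 7.26%, 6.6%, 7.17% and 9.01% of all genes were negative. In the other 3 comparisons same-numbered mice correlated between -0.52 and 0.14, with at most 1 of 8 mice closest to its own number (6 of 8 between the *Glis3*-Pax8Cre groups), so their numbers were not read as pairs. The cause of these shifts was not tested. Library size alone put the all-gene median log2FC at 0.158 between the LID groups, 0.143 between the ND groups, -0.185 for the WT diets and -0.166 for the *Glis3*-Pax8Cre diets. Searched on the sense strand alone, CCAAT was in 50% of the 42 promoters.

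Limits remain. With 4 mice a group, 1 mouse can set the spread, and a difference between the LID groups of up to 0.38 (log2) was within the median standard error of the 16 mice. Library totals ranged from 13892352 to 461077969 counts, and the lowest count of any of the 51 genes in any mouse was 20. No batch is given in the labels.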
